A study of Drosophila melanogaster with 24 samples.

Results

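CYC binding in fly heads was described from 4 lists of ChIP-seq peaks, out of 24 libraries in the series. V5 pull-downs were made from heads of flies that carry V5-tagged CYC (strain cyc, 2 libraries) and, as the mock, from heads of w- flies, which lack the tag (2 libraries). All flies were Drosophila melanogaster, 5 to 10 days old, kept at 25 °C under 12 h light and 12 h dark, and frozen early in the night, at ZT13. The series' design text states that the 2 libraries of a group came from separate biological samples. The starting material was 2 ml of sieved heads, which were fixed in 1% formaldehyde for 10 min. A head holds brain, eyes, fat body and other tissues, so a peak does not tell which cells were bound. The labels do not give the promoter that drives the tagged protein or the state of the untagged cyc gene. All peaks of the 4 lists were used, 30742 in all. Head CLK (V5-tagged CLK, strain Clk) and body CYC, with 2 libraries each and the same age and time, were used only to describe the CYC sites further.

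CYC (cycle) is a bHLH-PAS transcription factor that pairs with CLK (Clock), and the pair binds E-box elements. It turns on the genes of the core clock feedback loops, among them period, timeless, vrille and Pdp1, around the start of the night, and PER and TIM protein later hold the pair back. In heads the clock runs in brain neurons and glia, in photoreceptors and in fat body. The lists give positions in dm3 and name no genes. The gene table at hand is of Release 6, so positions were not assigned to genes here and no sequence was read at the sites.

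The lists of head CYC held 12086 and 4848 peaks in replicates 1 and 2, and those of head mock held 12082 and 1726. In both groups the list of replicate 1 was the longer one. CYC averaged 8467 ± 5118 peaks and mock 6904 ± 7323 (SD, n = 2 each), a log2 difference of 0.74 in peak number, which is smaller than the spread within each group (exact permutation test, two-sided p = 0.667). With 2 libraries against 2, the smallest p that this test can give is 0.333. Without mock replicate 2 the log2 difference turned to -0.66 (exact permutation p = 1), and without mock replicate 1 it was 2.15 (exact permutation p = 0.333). Of 18431 merged regions of the 4 lists, 25.5% had a peak in both replicate 1 lists and in neither replicate 2 list, and 0.543% had the opposite. The replicate 1 lists are longer, so part of this gap follows from list length. With all lists cut to the 1726 best peaks, CYC replicate 1 shared 49.1% of its peaks with mock replicate 1 and 7.88% with mock replicate 2. Mock replicate 1 thus stood apart from mock replicate 2 in length and in what it shared with CYC replicate 1. The part of the replicate number in the results was not tested, and values without mock replicate 1 are given beside them. With no read depth to go by, the lack of a peak says only that the authors' caller listed none there.

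The leading peaks of the CYC lists carried far higher scores than the bulk of the same lists. Each peak has 2 unnamed scores from the authors, both 2 or above, and the first is used here for strength within a list. In CYC replicate 1 the first score had a median of 3.16, a 99th percentile of 30.1 and a highest value of 952. In CYC replicate 2 these values were 2.99, 36.7 and 612. In the mock lists the medians were 3.29 and 3.24 in replicates 1 and 2, the 99th percentiles 16.7 and 8.82, and the highest values 91.2 and 88.0. The 4 medians were close together, and the highest scores of both CYC lists were above those of both mock lists. The scale of the score is not given in the sources used here and may depend on depth, so this difference was not tested.

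**Figure D1:**
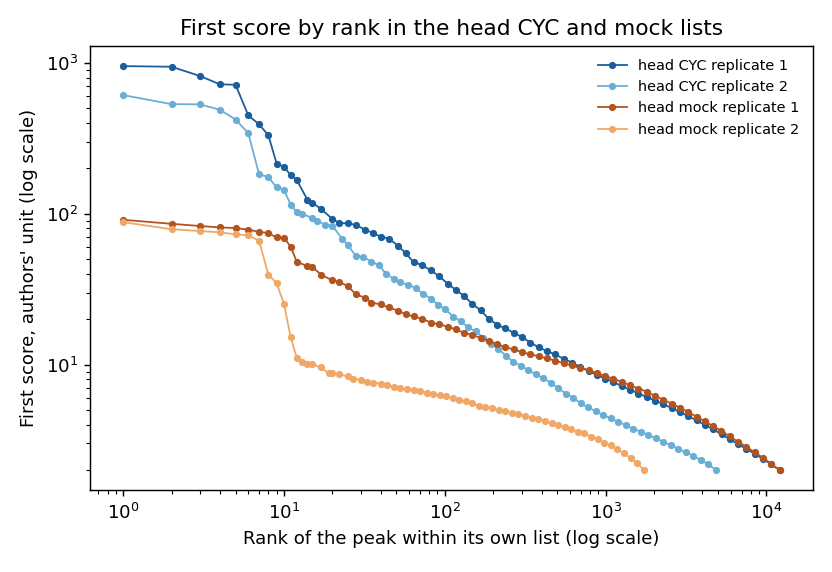
First score in the authors' unit (y axis, log scale) against the rank of the peak in its own list (x axis, log scale) for the 2 head CYC and the 2 head mock lists, 1 line per list. The CYC lines start at 952 and 612 and the mock lines at 91.2 and 88.0, and the lines of CYC replicate 1 and mock replicate 1 come together at the weaker ranks.

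Most of the strongest CYC peaks came back in the other CYC library, at nearly the same base. A CYC site is a peak of CYC replicate 1 with at least 1 bp in common with a peak of CYC replicate 2. There were 2524 CYC sites (20.9% of 12086), and 2336 replicate 2 peaks were their best partners. By the same rule 625 mock sites were found, 5.17% of the 12082 peaks of mock replicate 1. With all lists cut to the 1726 best peaks, 700 peaks of CYC replicate 1 (40.6%, exact 95% interval 38.2 to 42.9) overlapped CYC replicate 2. At that length 144 peaks of mock replicate 1 (8.34%, 7.08 to 9.75) overlapped mock replicate 2. Intervals here are Clopper-Pearson and cover counting error only, since peaks are not replicates.

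Of the 100 best CYC peaks, 86 in replicate 1 and all 100 in replicate 2 had a peak in the other CYC list. Of the 100 best mock peaks, 22 in replicate 1 and 43 in replicate 2 had a peak in the other mock list. All 14 exceptions in CYC replicate 1 lay on the heterochromatic scaffold XHet, at ranks 20 to 98, and 13 of them had a peak in mock replicate 1. None of the 14 had a peak in both head CLK lists. CYC replicate 2 had no peak on XHet. Among the 500 best, 337 in CYC replicate 1 and 480 in CYC replicate 2 had a peak in the other CYC list. For the mock lists these counts were 55 and 204. Of the 163 without a partner in CYC replicate 1, 17 lay on XHet, 135 had a peak in mock replicate 1 and 49 had one in both head CLK lists.

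The midpoints of the 2 CYC peaks of a site lay a median of 3 bp apart at the 10 best sites and 9.5 bp apart at the 100 best, ranked by the mean of both ranks. Over all 2524 sites the median was 43 bp. At mock sites it was 62 bp for the 10 best, 83.5 bp for the 100 best and 110 bp for all 625. Within CYC the distance grew as sites became weaker, with a median of 13.5 bp in bin 1 and 93 bp in bin 10 when the sites were split by rank into 10 bins of equal size, bin 1 being the strongest. The first scores of the 2 CYC libraries ran together across sites (Spearman's rho 0.79 at the 966 sites without a mock peak and 0.70 at the 1558 with one). Across the 625 mock sites rho was 0.32. These correlations are descriptions, since all sites share the same libraries.

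The 10 best CYC sites with a mock peak were also the 10 best sites of all. They are given first with the first score in each library, because they carry the highest scores in both CYC lists. On 3L, the site at 7826800 to 7827056 had first scores of 952 and 531 in CYC replicates 1 and 2, against 8.98 in mock replicate 1. Its neighbour 3L 7828235 to 7828491 had 819 and 612 in CYC and 14.3 in mock replicate 1. On 2L, the site at 3507287 to 3507543 had 721 and 533 in CYC and 12.1 in mock replicate 1. These 3 sites took ranks 1, 3 and 4 in CYC replicate 1 and ranks 3, 1 and 2 in CYC replicate 2, while their mock peaks ranked 832, 196 and 301.

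A stretch of 2L held 5 further sites among the 10. The strongest, 2L 5303216 to 5303472, had 943 and 489 in CYC and 17.2 in mock replicate 1. At 2L 5305522 to 5305778 the scores were 716 and 343 in CYC and 13.7 in mock replicate 1. The remaining 3 sites of this stretch, starting at 5301020, 5301375 and 5303823, had 205, 392 and 331 in CYC replicate 1 and 115, 183 and 175 in CYC replicate 2. The sites at 5301020 and 5301375 both overlap 1 peak of mock replicate 1, with a first score of 10.99. The site at 5301375 also overlaps a further peak of mock replicate 1, with a first score of 10.97.

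The last 2 sites of the 10 lay on X and on 3R. X 2578963 to 2579219 had 449 and 421 in CYC and 7.02 in mock replicate 1. At 3R 21954147 to 21954403 the scores were 215 and 149.7 in CYC and 9.53 in mock replicate 1. No peak of mock replicate 2 lay at any of the 10 sites. The 10 sites had ranks 1 to 10 in CYC replicate 1 and 1 to 11 in CYC replicate 2. Low ranks in both lists follow in part from the choice of the sites by the mean of these ranks.

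Among sites without a peak in either mock list, the best stood at places 12 to 55 of the 2524. 3R 278236 to 278492 had first scores of 124 and 145 in CYC replicates 1 and 2. At 2L 12003286 to 12003542 they were 103 and 99.8, and at 2L 478784 to 479040 they were 118 and 77.2. These 3 sites ranked 14, 18 and 15 in CYC replicate 1 and 10, 13 and 21 in CYC replicate 2. Next came 3R 628913 to 629169 with 74.3 and 93.8, and 3L 7829891 to 7830147 with 65.4 and 84.3. This 3L site lies within 2000 bp of the second best site of all. It shares its best CYC replicate 2 partner with a site that has a mock peak, so it may not be a separate peak in replicate 2. 3R 20394220 to 20394476 had 69.1 and 50.4, and 2L 6612356 to 6612612 had 64.9 and 51.7.

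The last 3 of the 10 were X 11677130 to 11677386 with 78.2 and 34.9, X 2579410 to 2579666 with 46.3 and 41.4, and 2L 14250007 to 14250263 with 43.9 and 35.3. Every one of the 10 had a peak in both head CLK lists, at ranks 15 to 140 in CLK replicate 1. The sites at X 11677130 and 2L 14250007 had no peak in either body CYC list, and the other 8 had one in both.

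Mock peaks lay at most of the very best CYC sites, and below these the share of sites without one showed no steady order with strength. A mock peak was present at 10 of the 10 best CYC sites, 41 of the 50 best, 76 of the 100 best (66.4 to 84.0) and 289 of the 500 best. Of the 2524 sites, 966 (38.3%, 36.4 to 40.2) had no peak in either mock list, close to the 38.5% among all replicate 1 CYC peaks. Among all replicate 2 CYC peaks the share was 57.6%. It was 40.5% in bin 1 (34.4 to 46.8), 27.4% in bin 6 (22.0 to 33.3) and 50.2% in bin 10 (43.9 to 56.5). Mock replicate 1 had a peak at 1511 sites and mock replicate 2 at 218 (8.64%, 7.57 to 9.80). Without mock replicate 1 the share of sites without a mock peak was thus 91.4%, or 2306 sites. With all lists cut to 1726 peaks it was 70.0% of 700 sites.

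The overlap with mock was largest between libraries of replicate 1. At 1726 peaks per list, CYC replicate 1 shared 49.1% of its peaks with mock replicate 1 (46.7 to 51.5) and 7.88% with mock replicate 2 (6.65 to 9.25). CYC replicate 2 shared 14.3% with mock replicate 1 (12.7 to 16.1) and 10.4% with mock replicate 2 (8.97 to 11.9). The pair of replicate 1 libraries was thus above the other pairs of CYC with mock, which lay between 7.88% and 14.3%. It was also above the overlap of CYC replicate 1 with CYC replicate 2, 40.6% at this length (38.2 to 42.9).

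The 9562 CYC replicate 1 peaks without a replicate 2 partner had a mock peak in 61.4% of cases, about as often as the sites (61.7%). The 2465 CYC replicate 2 peaks without a replicate 1 partner had one in 24.4%. Peaks without a partner had a lower median first score, 3.0 in replicate 1 and 2.64 in replicate 2, against 4.12 and 3.70 with a partner. The best ranks among peaks without a partner were 20 and 200. A peak in both head CLK lists was found at 13.4% and 10.2% of the peaks without a partner, against 53.4% and 55.4% of those with one.

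A peak in both lists of CLK, the partner of CYC, was found at nearly all strong CYC sites and at few weak ones. A peak in at least 1 CLK list was more widespread, at 2146 of the 2524 sites (85.0%, 83.6 to 86.4). Of the 2524 sites, 1348 (53.4%, 51.4 to 55.4) had a peak in both head CLK lists, against 21.7% of all replicate 1 CYC peaks and 14.7% of all replicate 1 mock peaks. The share was 100 of 100 among the best sites and 481 of 500 among the 500 best. It was 99.6% in bin 1, 92.9% in bin 2, 56.5% in bin 5 and 20.2% in bin 10. Among the 625 mock sites it was 25.1% (21.8 to 28.7), with 36.8% among the 125 strongest and 12.0% among the 125 weakest. CYC and CLK midpoints of the same replicate number lay a median of 23 bp apart in replicate 1 (2105 sites with a CLK peak) and 32 bp in replicate 2 (1389 sites).

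Sites without a mock peak had a CLK peak in both lists more often than sites with one, 61.1% (57.9 to 64.2) against 48.7% (46.1 to 51.2). The order was the same in bins 2 to 10, and bin 1 was the exception with 99.02% against 100%. The difference rests on the choice of libraries. Without mock replicate 1 the shares were 53.6% and 51.8%. With the CYC replicate 2 list alone they were 27.1% and 39.6%, the opposite order, and with the CYC replicate 1 list alone 22.9% and 21.0%. The order also turned with the measure. A peak in at least 1 CLK list was found at 81.1% of the sites without a mock peak (78.4 to 83.5) and at 87.5% of those with one (85.7 to 89.1). For CLK replicate 1 alone the shares were 79.4% and 85.9%, and for CLK replicate 2 alone 62.7% and 50.3%.

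Body CYC peaks fell off faster with strength than head CLK peaks. Of the 2524 head sites, 297 (11.8%, 10.5 to 13.1) had a peak in both body CYC lists, against 3.19% of all replicate 1 CYC peaks and 1.32% of all replicate 1 mock peaks. The share was 56.0% in bin 1 (49.6 to 62.2), 28.6% in bin 2, 11.5% in bin 3 and 0.791% in bin 10. It was 19.2% (16.7 to 21.8) at sites without a mock peak and 7.19% (5.96 to 8.59) at sites with one. The body lists are shorter, with 3967 and 1276 peaks, and heads and bodies were sonicated for different numbers of rounds, whose part was not tested.

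**Figure D2:**
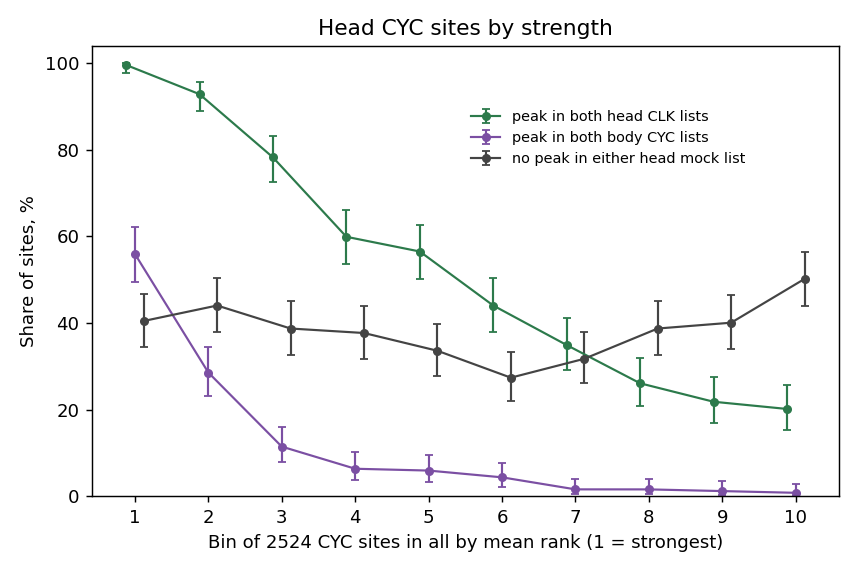
Share of the 2524 head CYC sites in each of 10 bins of strength (x axis, 1 is the strongest) with a peak in both head CLK lists, with a peak in both body CYC lists, or with no peak in either head mock list (y axis, percent, points with exact 95% binomial intervals). The CLK share is 99.6% in bin 1 and 20.2% in bin 10, and the body share is 56.0% and 0.791%, while the share without a mock peak stays between 27.4% and 50.2%.

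Where both CYC and mock had a peak, the ranks of the site in the 2 lists were set side by side. This comparison used CYC replicate 1 and mock replicate 1, whose lists are of nearly equal length, at the 1511 sites with a peak in both. The rank was better in CYC at 728 sites and the ranks in both lists had a Spearman's rho of 0.47, given as a description. A rank at least 10 times better in CYC was found at 127 sites, and one at least 10 times better in mock at 11. These counts cannot be weighed against each other, since a site needs a peak in both CYC lists but only 1 mock list, which leaves out peaks that were strong in mock and missing from CYC replicate 2. Of the 100 best peaks of mock replicate 1, 95 had a peak in CYC replicate 1 and 13 had one in CYC replicate 2. Over all peaks of mock replicate 1 these shares were 58.3% and 16.4%. The 127 sites had median ranks of 126 in CYC replicate 1 and 4151 in mock replicate 1, and the 11 sites had 2518 and 201. The gap between these medians follows from the rule that picked the sites. In CYC replicate 2, where each site has a peak by definition, the median rank of the 127 was 110 of 4848. All 127 had a peak in both head CLK lists, a share that strong sites had in any case (99.6% in bin 1), and 45 had one in both body CYC lists. Of the 11, 2 had a peak in both head CLK lists and 0 in both body CYC lists.

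**Figure D3:**
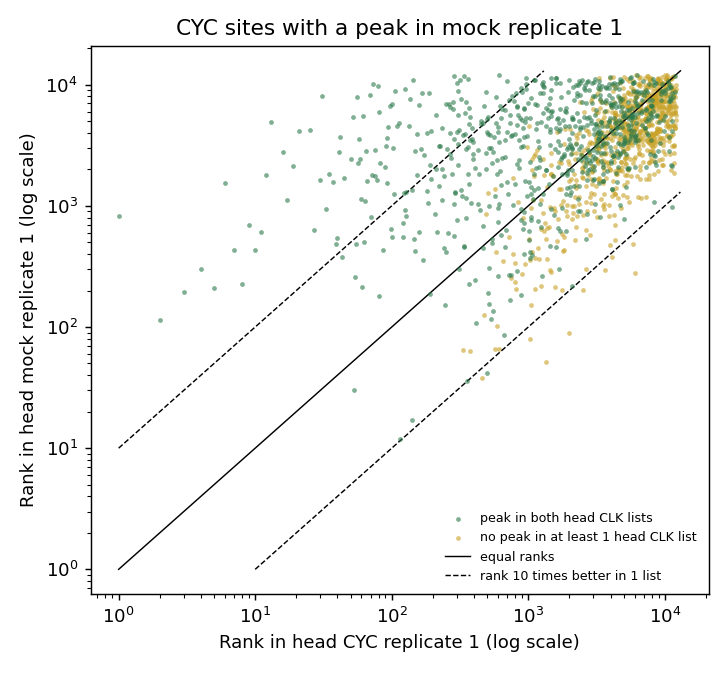
Rank in head CYC replicate 1 (x axis, log scale) against rank in head mock replicate 1 (y axis, log scale) at the 1511 CYC sites with a peak in both lists, 1 point per site, coloured by whether both head CLK lists have a peak. The 127 sites above the upper dashed line rank at least 10 times better in CYC, the 11 below the lower one at least 10 times better in mock.

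All 10 best mock sites by the first score lay on XHet. CYC replicate 2 had no peak on XHet, so 0 of them could have a peak in both CYC lists. Among the 100 best mock sites, 43 had a peak in both CYC lists. XHet 194280 to 194544 had a peak with a first score of 86.9 in CYC replicate 1 and none in CYC replicate 2, against scores of 85.8 and 78.9 in mock replicates 1 and 2. The next 4 mock sites, starting at 190687, 195379, 190398 and 195063, had CYC replicate 1 scores of 81.0 to 87.0, again with no peak in CYC replicate 2, and mock scores of 72.1 to 88.0. In CYC replicate 1 the peaks at these 5 sites ranked 22 to 29. The sites at 190687 and 190398 share 1 peak of mock replicate 2. By the second score these 5 sites were low, with 3.26 to 4.38 in mock replicate 1 (list median 4.69) and 2.11 to 2.31 in mock replicate 2 (list median 2.74). All 5 also had a peak in head CLK replicate 1, with scores of 44.0 to 61.1, and none in head CLK replicate 2. Of all 625 mock sites, 175 (28.0%, 24.5 to 31.7) had a peak in both CYC lists, against 12.4% of all replicate 1 mock peaks. A peak in CYC replicate 1 was found at 446 of the 625 (71.4%), against 58.3% of all replicate 1 mock peaks. At 139 mock sites neither CYC list had a peak.

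Clusters were defined as 2 or more sites of a set with gaps of at most 5000 bp, and how CYC sites compared with mock sites varied with the set taken. Of all 2524 CYC sites, 1429 (56.6%, 54.7 to 58.6) lay in 487 clusters. The same share was not computed over all CYC peaks. Neighbouring sites over the same replicate 2 peak count separately (2336 best partners for 2524 sites), and 809 sites lay within 1000 bp of another. Of the 966 sites without a mock peak, 276 (28.6%, 25.7 to 31.5) lay in 118 clusters. Of the 1558 sites with a mock peak, 841 (54.0%, 51.5 to 56.5) lay in 297 clusters. Of the 625 mock sites, 263 (42.1%, 38.2 to 46.1) lay in 89 clusters. More sites give more clusters, so the 625 best CYC sites were also taken, of which 224 (35.8%, 32.1 to 39.7) lay in 86 clusters. The 625 best sites without a mock peak gave 153 (24.5%). Without chromosome 4 the shares were 35.4% of the 528 best CYC sites and 33.9% of the 528 mock sites. Among the 2306 CYC sites without a peak in mock replicate 2, 1248 (54.1%) were in clusters, a set of more sites than the 966.

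**Figure D4:**
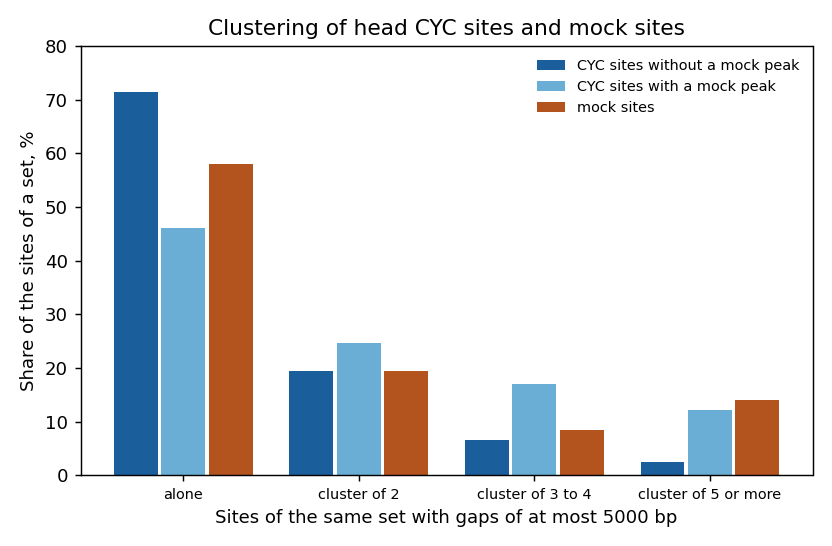
Share of sites (y axis, percent) that lie alone or in clusters of 2, 3 to 4, or 5 or more sites of the same set (x axis), for CYC sites without a mock peak, CYC sites with a mock peak and mock sites. Of the CYC sites without a mock peak 71.4% lie alone, against 57.9% of the mock sites, and clusters of 5 or more hold 2.59% of the first and 14.1% of the second.

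All 10 best CYC sites lay in 5 clusters of CYC sites, while 40 of the 50 best were spread over 25 clusters and 70 of the 100 best over 48, against 56.6% of all CYC sites that lay in a cluster. Only 4 clusters held 3 or more of the 100 best sites, with 20 of them in all. The cluster with most of the 100 best sites, 2L 5283426 to 5306784, was chosen after its values were seen. It held 16 sites over 23358 bp, of which 7 were among the 100 best. Its CYC replicate 1 scores ran from 2.11 to 943 and its CYC replicate 2 scores from 2.97 to 489. The 5 sites between 5285206 and 5293724 and the site at 5296927 had no mock peak and scores of 2.24 to 25.1 in CYC replicate 1. Mock replicate 1 had peaks at 9 of the 16, with scores of 2.44 to 17.2, and mock replicate 2 at 0. Both head CLK lists had a peak at 14 of the 16 sites and both body CYC lists at 12.

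The cluster at 3L 7814527 to 7835111 held 13 sites, 6 of them among the 100 best, with CYC replicate 1 scores of 2.14 to 952. Both head CLK lists had a peak at 12 of these and both body CYC lists at 7. A short cluster at X 2578963 to 2581851 held 5 sites over 2888 bp, 4 of them among the 100 best. All 5 of these X sites had CLK peaks in both lists, and 4 peaks of CYC replicate 2 were their best partners. At 3R 21943195 to 21954403, 8 sites had CYC replicate 1 scores of 2.50 to 215, and both CLK lists had a peak at all 8. The clusters at 3L, X and 3R were likewise chosen after their values were seen.

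Of the 7 clusters with the most CYC sites, 2 were the strong clusters on 2L and 3L described above. In the other 5, CYC replicate 1 scores were at most 12.6, and the best site of each ranked 409 to 1008 in that list. The largest of all, 3R 16793201 to 16802483, held 23 sites over 9282 bp at a median step of 317.5 bp, close to the peak width of 256 bp in CYC replicate 1. Its CYC scores were 2.12 to 12.6 in replicate 1 and 2.35 to 6.99 in replicate 2, where 17 peaks were the best partners of the 23 sites. Mock replicate 1 had a peak at 22 of the 23, with scores of 2.96 to 17.5, and mock replicate 2 at 4. Both head CLK lists had a peak at 11 and both body CYC lists at 0. The median rank of its sites was 2905 in CYC replicate 1 and 1785.5 in mock replicate 1. The other 4 lay on chromosome 4, with 12 to 18 sites each, CYC replicate 1 scores of at most 12.6, and a peak in both body CYC lists at 0 sites. None of the sites of these 5 clusters was among the 100 best. These clusters were also chosen after their values were seen.

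**Figure D5:**
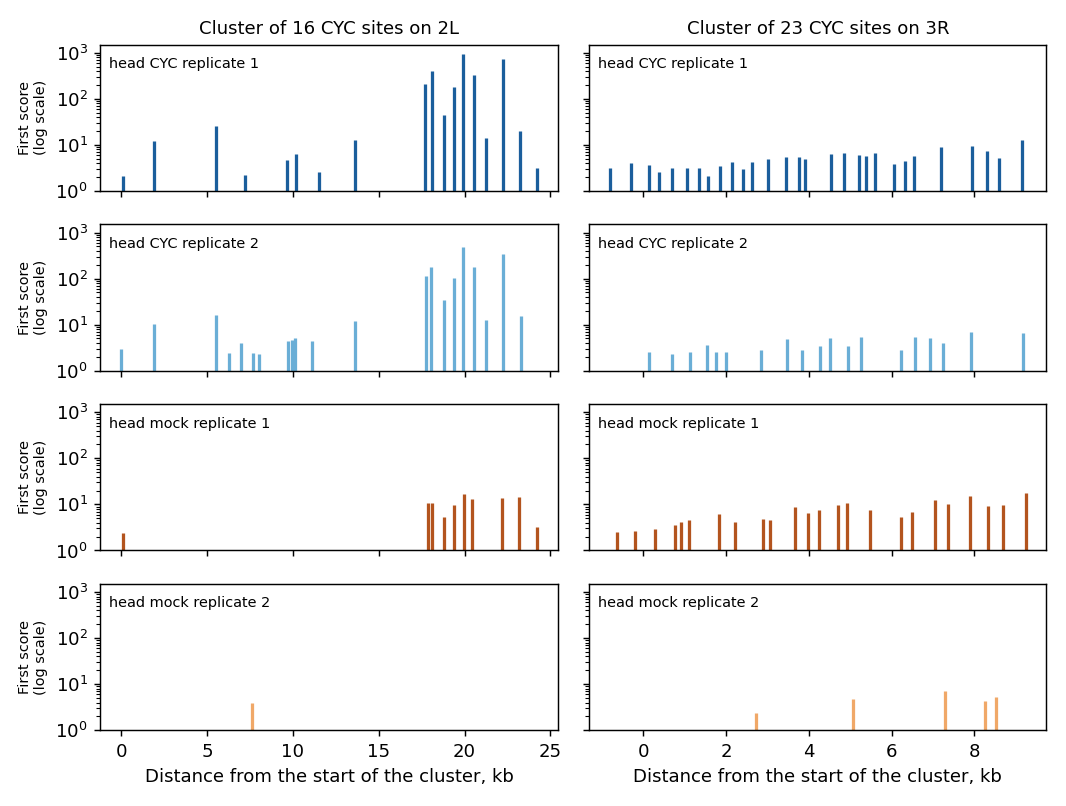
First score of every peak (y axis, log scale) against distance from the start of the cluster (x axis, kb) in the 2 head CYC and the 2 head mock lists, for the cluster of 16 CYC sites on 2L (left) and the cluster of 23 on 3R (right). On 2L the CYC scores reach 943 and those of mock replicate 1 reach 17.2, while on 3R the CYC scores at the sites reach 12.6 and those of mock replicate 1 reach 17.5.

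Clusters were also formed from the sites without a mock peak alone, with sites that have one set aside, so such sites may lie between the members. Of the 118 clusters, 94 were pairs, 24 had 3 or more sites and 4 had 5 or more. The largest, 2R 14688608 to 14698292, held 9 sites with CYC replicate 1 scores of 2.41 to 16.6 and CYC replicate 2 scores of 2.91 to 23.2. Both head CLK lists had a peak at 7 of them and both body CYC lists at 6, and 1 further CYC site with a mock peak lay in the same stretch. Its best site, starting at 14693722, ranked 258 and 102 in the 2 CYC lists. The second, 2L 5285206 to 5297183, was the weaker flank of the strong 2L cluster, with 6 sites and scores of up to 25.1 in CYC replicate 1. Next were 3L 8687062 to 8698707 and 3L 7849685 to 7860769, with 5 sites each and CYC replicate 1 scores of at most 9.38 and 6.68. The fifth, 2L 476384 to 481440, had 4 sites with scores of 2.28, 118, 31.0 and 19.1 in CYC replicate 1 and 2.02, 77.2, 20.2 and 16.2 in CYC replicate 2.

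Chromosome 4 held 8.18% and 3.77% of all peaks of CYC replicates 1 and 2, and 7.57% and 6.2% of those of mock replicates 1 and 2. It held 36 of the 966 CYC sites without a mock peak (3.73%), 145 of the 1558 with one (9.31%) and 97 of the 625 mock sites (15.5%). Only 19.9% of the 181 CYC sites on chromosome 4 were without a mock peak, against 36.6% to 42.9% on 2L, 2R, 3L, 3R and X. None of the 100 best CYC sites lay on chromosome 4, and 14 of the 100 best mock sites did. The share of CYC sites on chromosome 4 was 0% in bin 1, 13.9% in bin 9, where it was highest, and 8.30% in bin 10. X held 13.8% of the CYC sites without a mock peak, 11.4% of those with one and 9.28% of the mock sites, beside 12.9% and 12.7% of all peaks of CYC replicates 1 and 2 and 16.7% and 9.10% of those of mock replicates 1 and 2. Few CYC sites, 8 in all, lay outside these chromosomes, against 18 mock sites.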

How the data were processed

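Chromatin pulled down with the V5 antibody from heads was sequenced in 2 CYC and 2 mock libraries. Reads were mapped with Bowtie 0.12.7 to dm3, per the submitters' processing notes. Each deposited list is named for 1 pull-down and its matching input, so replicates were not pooled. The peak caller is not given in the sources used here. The authors' deposited lists give chromosome, start, end, midpoint and 2 unnamed values per peak, treated here as a score of unknown scale. They hold no read counts, so depth and its precision are unknown. All peaks of a list have the same width.

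Computed here, with Python 3.11.15, numpy 2.4.6, scipy 1.17.1 and matplotlib 3.10.9, were overlaps (1 bp or more), sites, ranks by the first score, clusters (gap at most 5000 bp) and exact Clopper-Pearson 95% intervals. The overlap and cluster functions were tested on simulated lists. Peak numbers were compared on log2(peaks + 1) by an exact permutation test over libraries. No p-value was computed from peaks. Alternatives were score thresholds, lists of equal length, other overlap rules, cluster gaps, main arms, a replicate block and leaving out each library. The regions named are the 10 best sites without and the 10 best with a mock peak, the 5 best mock sites and the 5 clusters with the most sites without a mock peak. Other clusters named in the text were chosen after their values were seen. The rule's step of naming nearest genes was not applied, since no annotation of the build was at hand. Members, lists and measures were chosen with earlier results of these data known. Body CLK and body mock lists and input reads were not used here.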

Additional observations from a re-analysis of the deposited data

How the results depend on the processing

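The log2 difference in peak number, 0.74, was 0.58 and 1.44 among peaks at or above the median of the first and of the second score, 0.76 on the main arms and 1563 peaks on the linear scale. Leaving out 1 library it ran from -0.66 (without mock replicate 2, reversed) to 2.15. With the replicate number as a block it stayed 0.74, with an exact permutation p of 0.5, the smallest that 2 pairs allow. Over merged regions the replicate deviations of CYC and mock had a correlation of 0.15, with too few pairs to show that the numbers pair the samples.

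CYC sites numbered 2524, and 1318 and 672 above the medians of the first and second score and 700 at equal list length. Using 1 CYC list they were 4848 to 12086, and 2524 without either mock list. Sites without a mock peak, 966, numbered 416 above the median of the second score and 490 at equal length, and 966 became 1013 to 4658 with 1 library left out. Their share, 38.3%, was 50.0% and 61.9% above these medians, 70.0% at equal length, 54.8% with midpoints within 100 bp and 49.9% with an overlap of 50% of the shorter peak. With 1 library left out it was 38.5% to 91.4%. Those in clusters, 276, were 165 and 84 above the medians, 139 at equal length and 300 to 2655 with 1 library left out. Gaps of 2000 and 10000 bp gave 190 and 364. Mock sites, 625, were 281 and 48 above the medians, 144 at equal length, 301 with midpoints within 100 bp, 392 with an overlap of 50% of the shorter peak and 625 to 12082 with 1 library left out.

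The CLK share at sites without minus with a mock peak, 12.4 percentage points, was 18.7 and 21.0 above the medians and 17.8 at equal length. With 1 library left out it ran from -12.4 (without CYC replicate 1, reversed) to 12.0. Ranked by the second score, 7 of the 25 named regions stayed, which are 1 of the 10 sites without a mock peak, 6 of the 10 with one and 0 of the 5 mock sites. Counting sites as replicate 2 peaks, an alternative chosen after the data were seen, gave 2383 sites. Unknown depth limits every count.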

Other observations

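The second score ordered the CYC sites differently from the first. Of the 100 sites with the best mean rank by the second score, 57 were among the 100 best by the first, 96 had a peak in both head CLK lists, 29 had no mock peak and 31 had a peak in both body CYC lists. 2L 5303216 to 5303472 led by the second score, with 226.8 and 113.6 in CYC replicates 1 and 2. The next, 3R 19444069 to 19444325, had second scores of 222 and 74.1 and first scores of 79.2 and 52.4, and stood at place 25 by the first score. 3R 25143859 to 25144115 had the highest second score of CYC replicate 2, 305, against 88.8 in replicate 1. Both of these 3R sites had a mock peak, a peak in both head CLK lists and none in at least 1 body CYC list. The regions in this paragraph were chosen after their values were seen. Across sites the second scores of the 2 CYC libraries had a Spearman's rho of 0.43 at the 966 sites without a mock peak and 0.25 at the 1558 with one, given as a description.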
